A study of Rattus norvegicus with 4 samples.

Results

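Hhex and 8 other transcription factors that set up or maintain the identity of the hepatocyte, the main cell of the liver, were followed in rat liver RNA. The 9 genes, Hhex, Cebpa, Cebpb, Foxa1, Foxa2, Foxa3, Onecut1, Prox1 and Creb3l3, were picked by gene symbol out of 32545 listed genes, each matching 1 entry. The study sequenced messenger RNA from liver in 4 libraries, 2 from rats under forced activity and 2 from rats that had sleep restriction in addition to forced activity. All animals were thus kept active, and forced activity alone was the control. Strain, age, sex, genotype and length of treatment are not given in the sources used here. Nothing in the labels says whether the libraries came from separate animals, so p-values measure the spread between these libraries, which may be technical. The 9 factors were put together with earlier results of this same comparison known, so their own differences are given as a description, and where calls among them are counted beside the share of all genes called, nothing is read from the count.

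Hepatocyte identity rests on a small network of transcription factors that bind each other's genes as well as those of plasma proteins and metabolic enzymes. HHEX is a homeobox repressor needed for the liver bud to form, and endothelial cells express it too. FOXA1, FOXA2 and FOXA3 are forkhead factors that open chromatin at liver genes. C/EBPα and C/EBPβ are leucine zipper factors of metabolic and acute phase genes, ONECUT1 (HNF6) and PROX1 guide cells of the liver bud, and CREB3L3 (CREBH) is a membrane-bound factor that is cut free to activate lipid and acute phase genes.

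The counts summed to between 508202.6 and 520275.6 per library, nearly equal, as they would be if deeper libraries had been drawn down at random. This is read from the values and the table's name, and no label states it. By this reading the replicate 1 libraries were the deep ones and the replicate 2 libraries the shallow ones, so replicate number and depth cannot be told apart. Normalised read counts are given as CPM, that is per 1e6 counts at tested genes after TMM scaling. Log2 changes are sleep restriction over forced activity with a prior count of 2, and differences are also given within the deep pair (both replicate 1) and the shallow pair (both replicate 2). Markers of the labelled tissue were present, since all 9 hepatocyte markers examined passed the filter on low counts, with a summed level of 177509 to 189832 CPM. Markers of T and B cells reached at most 4.07 CPM (Ms4a1), the bile duct markers Sox9 and Cftr at most 0.42 CPM, and Cldn7 and Col1a2 were listed at 0 throughout.

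Upstream sequences are shown first for Hhex and Foxa2, the factors whose sleep restriction counts both lay under both controls, and for Foxa3, a relative of Foxa2 with a log2 change of the other sign. They are the 250 bases before the transcription start in the RefSeq promoter table of build GRCr8, which held 6 of the 9 genes (Foxa1, Onecut1 and Prox1 had no entry). Capitals mark matches, on either strand, to 7 short motifs: CCAAT (the CCAAT box), GGGCGG (the GC box), TATAAA (the TATA box), TGACG (the core of the CREB site), TTCNNNGAA (the STAT core), TGTTTNC (the forkhead core) and ATTGAT (part of the HNF6 site).
Hhex, chr1:244602695-244602944, plus strand: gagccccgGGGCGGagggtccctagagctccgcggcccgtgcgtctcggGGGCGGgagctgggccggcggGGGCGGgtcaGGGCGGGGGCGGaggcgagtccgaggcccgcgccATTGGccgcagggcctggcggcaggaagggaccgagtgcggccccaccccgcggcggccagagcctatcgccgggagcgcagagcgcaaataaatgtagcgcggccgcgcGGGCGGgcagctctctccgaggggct
Foxa2, chr3:155927509-155927758, minus strand: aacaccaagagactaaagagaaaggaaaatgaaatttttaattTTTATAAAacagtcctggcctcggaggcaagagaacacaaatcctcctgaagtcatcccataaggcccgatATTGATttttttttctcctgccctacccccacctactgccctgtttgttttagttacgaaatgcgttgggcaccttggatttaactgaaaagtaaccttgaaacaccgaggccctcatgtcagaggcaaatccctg
Foxa3, chr1:87799486-87799735, minus strand: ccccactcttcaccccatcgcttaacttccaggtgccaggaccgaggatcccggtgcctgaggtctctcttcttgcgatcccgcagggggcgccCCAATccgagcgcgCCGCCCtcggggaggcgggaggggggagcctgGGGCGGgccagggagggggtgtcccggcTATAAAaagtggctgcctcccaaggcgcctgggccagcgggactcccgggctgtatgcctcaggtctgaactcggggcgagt
The upstream region of Hhex was 78.4% G and C, against 42.8% for Foxa2, 69.6% for Foxa3 and a median of 51.2% over 33469 promoters. It held 6 GC boxes and 1 CCAAT box, on the minus strand from -136 to -132, counted back from the start site. A GC box occurs in 30.5% of all promoters of this length and a CCAAT box in 34.0%. Foxa2 had no GC box. It had the TATAAA letters on both strands, overlapping each other between -207 and -200, and ATTGAT from -136 to -131, letters that 7.10% of promoters hold. Foxa3 had a TATA box from -82 to -77, a motif of 12.9% of promoters, with 1 CCAAT box and 2 GC boxes upstream of it. None of these 3 held TGACG, the STAT core or the forkhead core, found in 18.2%, 7.67% and 18.3% of promoters. A match describes the letters only.

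Among the factors the difference was widest for Hhex. Its level in the controls, forced activity 1 and 2, was 281 and 109 CPM, and in sleep restriction 1 and 2 it was 44.4 and 36.6 CPM. Both controls lay above both sleep restriction libraries, and the controls differed from each other far more than the sleep restriction libraries did. The control mean of 195 ± 121 CPM (SD, 2 libraries) compares with 40.5 ± 5.48 CPM under sleep restriction, 4.81-fold lower. The log2 change was -2.14 (SE 0.44), the third lowest of 4986 tested genes, and the deep pair differed by -2.56, the shallow pair by -1.48. The deposited counts behind these levels were 132.5, 56, 21.8 and 18 in the same order. From the estimated depth, counting alone would give them standard deviations of 3.95, 5.94, 1.83 and 4.24 counts, so the gap between the controls is much wider than counting error. Without forced activity 1, the library with the highest Hhex, the log2 change was -1.34, and it was -2.67 without forced activity 2.

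**Figure D1:**
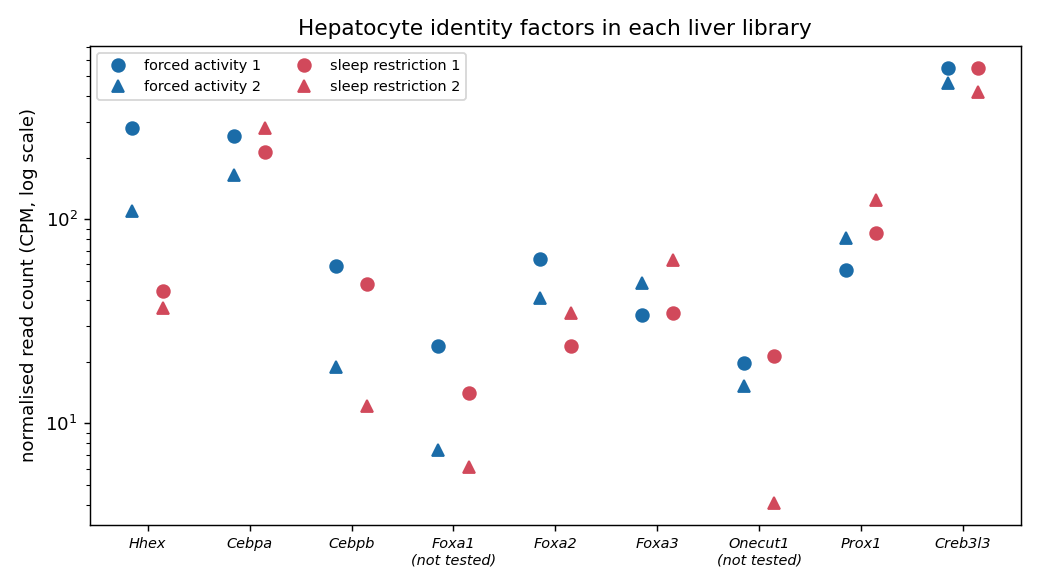
Normalised read count (CPM, log axis) of each of the 9 factors in each library; colour gives the group and shape the replicate, and each point is 1 library. Hhex, Foxa2 and Prox1 are the tested genes whose groups do not overlap, Hhex at 281 and 109 CPM in the controls against 44.4 and 36.6 CPM.

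In the file's build, rn6, Hhex (ENSRNOG00000016595.5) spans chromosome 1 from 256101903 to 256107649, and no other listed gene overlaps it. The gene lies between Kif11 and Exoc6, neither of which passed the filter on low counts. Within 500 kb, 3 other genes were tested, chosen by position after values had been seen. Ide, the insulin-degrading enzyme, had a log2 change of 0.26 (SE 0.23), with 38.5 and 40.2 counts in the controls and 40.1 and 54 under sleep restriction. March5, a mitochondrial ubiquitin ligase, had 0.28 (SE 0.24) and Btaf1, a regulator of the TATA-binding protein, had 0.45 (SE 0.29). None of these 3 was called, and none had the lower counts of Hhex under sleep restriction.

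The tested genes nearest to Hhex in pattern over the 4 libraries were Rgs3, Socs2 and Cish. The measure was the root mean square difference of log2 CPM after each gene was centred on its own mean, which was 0.40 for Rgs3, 0.43 for Socs2 and 0.44 for Cish. Rgs3, which dampens G-protein signals, had 36.1 and 28.9 counts in the controls and 11.7 and 7 under sleep restriction. Socs2 and Cish are cytokine signalling inhibitors, with 20.6 and 16.5, then 6 and 2 counts for Socs2, and 33.9 and 15.1, then 1.7 and 1 counts for Cish. Like Hhex, all 3 were highest in forced activity 1 and lowest in sleep restriction 2, an order largely set by how they were picked. Of the other factors Foxa2 was nearest to Hhex, at 0.73, and Prox1 farthest, at 1.48. With 4 libraries such likeness is a description only.

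Among the forkhead factors, Foxa2 was lower under sleep restriction while Foxa3 was not. Foxa2 stood at 63.8 and 40.9 CPM in the controls, then at 23.8 and 34.6 CPM under sleep restriction. The groups did not overlap, but the shallow libraries were close to each other. The mean went from 52.3 ± 16.2 to 29.2 ± 7.62 CPM, with a log2 change of -0.74 (SE 0.30). The deep pair differed by -1.28 and the shallow pair by -0.22. It was -0.42 without forced activity 1. Foxa2 (ENSRNOG00000013133.3) lies on chromosome 3 from 142383278 to 142387481.

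Foxa3, the third forkhead factor of the group, measured 34.1 and 48.5 CPM in the controls and 34.6 and 63.1 CPM under sleep restriction. The groups overlapped, and both shallow libraries were above both deep ones. The log2 change was 0.22 (SE 0.31), which turned to -0.24 without sleep restriction 2. Library depth and scaling cancel in the ratio of Foxa2 to Foxa3 counts within a library. This ratio was 1.87 and 0.843 in the controls and 0.688 and 0.548 under sleep restriction. The groups did not overlap in it, but Foxa2 alone did not overlap either, so the ratio is not a separate result. It is not a comparison of the levels of the genes, since the counts are not per length.

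Foxa1 was too low to test, with 11.3 and 3.8 counts in the controls and 6.9 and 3 under sleep restriction. The deep pair differed by -0.63 and the shallow pair by -0.17, and the groups overlapped. Its counts were higher in both deep libraries than in both shallow ones. Foxa1 lies on chromosome 6 from 78545804 to 78549669 and Foxa3 on chromosome 1 from 79920752 to 79930263.

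Prox1 encodes a homeobox factor that also marks lymphatic endothelium. It represses bile acid synthesis as a corepressor of the nuclear receptor LRH-1. Prox1 was the tested factor whose levels were higher with no overlap between the groups. It stood at 56.2 and 80.6 CPM in the controls, then at 85.3 and 124 CPM under sleep restriction. The groups did not overlap, although forced activity 2 lay just under sleep restriction 1. The mean went from 68.4 ± 17.3 to 105 ± 27.5 CPM, 1.53-fold higher, with a log2 change of 0.60 (SE 0.26). The pairs were nearly equal at 0.57 and 0.60, and with 1 library left out the change stayed between 0.31 and 0.87. Prox1 spans chromosome 13 from 108382399 to 108443294.

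Onecut1 was too low to test. It had 9.3 and 7.8 counts in the controls and 10.5 and 2 under sleep restriction. Sleep restriction 2 was the low library and the other 3 were alike, so the deep pair differed by 0.10 and the shallow pair by -1.24. Its relatives Onecut2 and Onecut3 also stayed under the filter, with 2.8 to 6.1 counts for Onecut2 and Onecut3 listed at 0 throughout. Onecut1 lies on chromosome 8 from 81766041 to 81793577.

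The C/EBP factors overlapped between the groups, and their log2 changes were smaller than their SE. Cebpa measured 255 and 164 CPM in the controls and 214 and 281 CPM under sleep restriction. Its groups overlapped, and the pairs were of opposite sign (deep -0.25, shallow 0.76), giving a log2 change of 0.24 (SE 0.25). It was -0.05 without forced activity 2. Cebpa lies on chromosome 1 from 91363492 to 91366164.

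Cebpb followed replicate number rather than group. It measured 59.1 and 48.2 CPM in the deep libraries, forced activity 1 and sleep restriction 1, and 18.9 and 12.2 CPM in the shallow ones. The log2 change between groups was -0.31 (SE 0.59), and it ran from -1.41 without sleep restriction 1 to 0.56 without forced activity 1. The ratio of Cebpa to Cebpb counts was 4.32 and 4.44 in the deep libraries against 8.67 and 23 in the shallow ones. Cebpb lies on chromosome 3 from 164424515 to 164425910. The deposited entry is 1396 bases long.

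Creb3l3 was the steadiest factor. It measured 552 and 463 CPM in the controls and 549 and 421 CPM under sleep restriction. The deep libraries were again above the shallow ones, and the groups overlapped. The mean was 507 ± 63.1 against 485 ± 90.3 CPM, with a log2 change of -0.06 (SE 0.21), and it lay between -0.27 and 0.11 with 1 library left out. Creb3l3 lies on chromosome 7 from 11490852 to 11499282.

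Taking the factors as a list, 7 of the 9 passed the filter on low counts. Of these 7, 3 were above 0 and 4 below in log2 change. Their median was -0.06, against 0.00 over all 4986 tested genes. In edgeR's quasi-likelihood test 0 were called at an adjusted p under 0.05, beside 0.0201% of all tested genes. At an unadjusted p under 0.05 there were 3, beside 4.25%. DESeq2 on the same genes called 1, Hhex, beside 0.0401%, while DESeq2 on all genes, which called 0.00787% of them, and limma-voom, which called 0.0%, called 0 of the factors. The groups did not overlap for 2 lower factors, beside 15.3% of all tested genes, and for 1 higher factor, beside 17.2%. Since the factors were assembled from this comparison, nothing is read from these counts. By replicate number, Cebpb and Creb3l3 were higher in both deep libraries, beside 21.4% of tested genes, and Foxa3 was lower in both, beside 21.9%. In 7 of the 9 factors the deep and shallow pairs had the same sign, the exceptions being Cebpa and Onecut1. That count includes the untested Foxa1 and Onecut1, while the share of 56.1% with the same sign is of tested genes only. It also includes Creb3l3 and Foxa3, whose deep pairs differed by only -0.008 and 0.018, so that their signs say little.

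**Figure D2:**
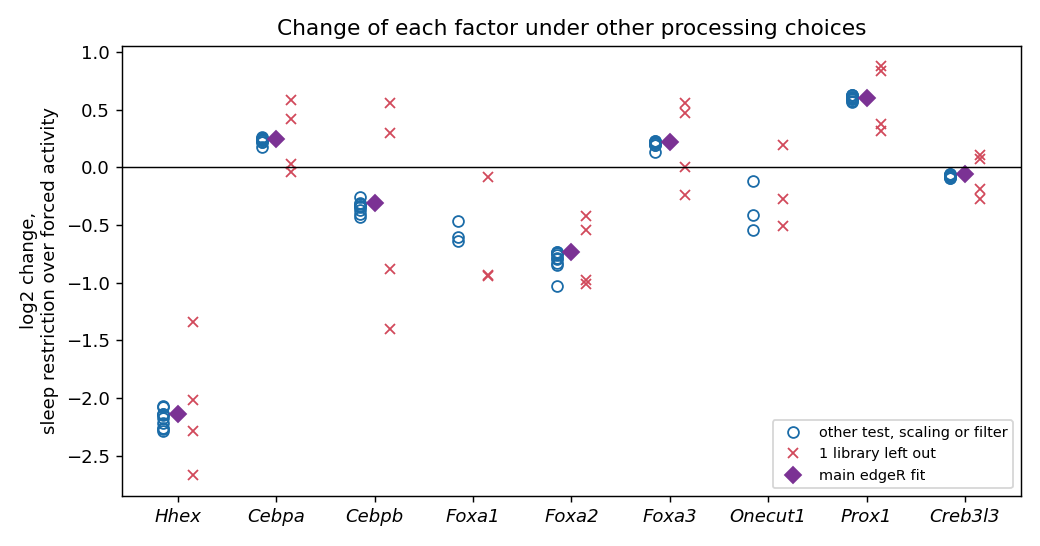
Log2 change of each factor, sleep restriction over forced activity, in the main edgeR fit (diamonds), under other tests, scalings or filters (circles) and with 1 library left out (crosses). Hhex stays below 0 throughout (-2.67 to -1.34 with 1 library left out), while Cebpa, Cebpb, Foxa3, Onecut1 and Creb3l3 have values on both sides of 0.

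**Figure D3:**
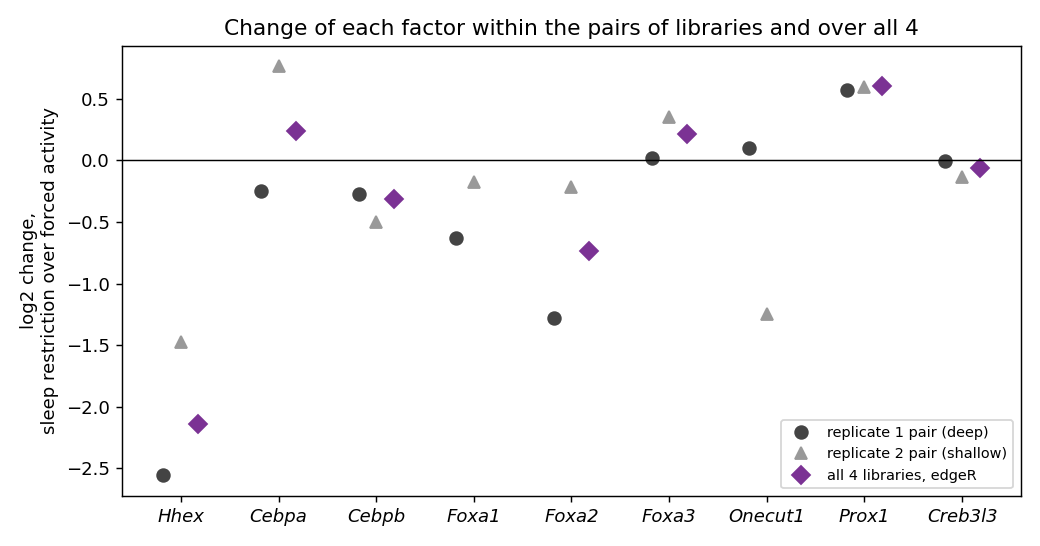
Log2 change of each factor, sleep restriction over forced activity, in the deep pair, in the shallow pair and over all 4 libraries (edgeR, tested factors only). Hhex is below 0 at -2.56, -1.48 and -2.14, Prox1 above 0 at 0.57, 0.60 and 0.60, and Cebpa is of opposite sign in the pairs.

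HHEX and PROX1 are also made by endothelial cells, so markers of the other liver cells were set beside them. In bulk liver, fewer cells of a type and less RNA per cell cannot be told apart. The summed level of 16 endothelial markers was 303 and 825 CPM in the controls, then 779 and 435 CPM under sleep restriction. It was lowest in forced activity 1, where Hhex was highest, and the groups overlapped. Of the 10 endothelial markers tested 7 had a positive and 3 a negative change, with a median of 0.04 (deep pair 1.34, shallow pair -0.94), and 0 were called. Lyve1, a hyaluronan receptor, measured 50.2 and 133 CPM in the controls and 122 and 77.3 CPM under sleep restriction, and Eng, a coreceptor of TGF-β, 84.1 and 125, then 142 and 63.1 CPM. Hhex differed by -2.56 in the deep pair, where the endothelial median was positive, and by -1.48 in the shallow pair, where it was negative.

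The summed level of macrophage markers was 719 and 951 CPM in the controls and 1132 and 794 CPM under sleep restriction, and that of stellate and fibroblast markers 925 and 1009, then 1119 and 887 CPM. The level of red cell markers was 932 and 1936, then 1241 and 761 CPM. Each of these sums overlapped between the groups. The sum of hepatocyte markers differed least, at 177509 and 182744 CPM, then 182643 and 189832 CPM, but most of it was albumin (Alb), which had a log2 change of 0.09 (SE 0.19). Of the 9 hepatocyte markers 4 had a positive and 5 a negative change, with a median of -0.18, and 0 were called. Asgr1 and Asgr2, the subunits of the asialoglycoprotein receptor, had -0.33 and -0.26, the thyroid hormone carrier Ttr -0.28 and Apoa1 -0.56. Each of these was lower with no overlap between the groups, while 1 marker (Cps1) was higher with no overlap. Of all tested genes, 15.3% were lower and 17.2% higher with no overlap, and nothing is read from the marker counts. The part of cell makeup in the differences of Hhex, Foxa2, Prox1 and Cebpb was not tested.

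**Figure D4:**
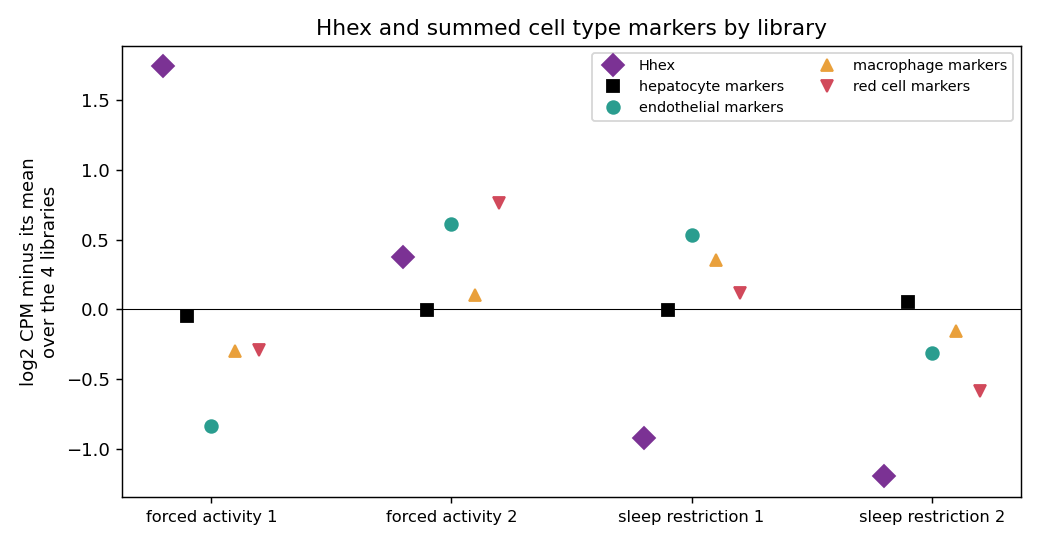
Log2 CPM of Hhex and of 4 summed marker lists in each library, each centred on its mean over the 4 libraries. Hhex is high in both controls, while the endothelial sum is low in forced activity 1 (303 CPM) and high in forced activity 2 and sleep restriction 1 (825 and 779 CPM), and the hepatocyte sum, mostly Alb, is nearly flat.

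Relatives of the factors were mostly low. Of the C/EBP relatives 1 of 4 was tested, Cebpg, a dimer partner of the other C/EBP factors, at a log2 change of 0.16 (SE 0.22), while Cebpd had between 1.6 and 3 counts. Of 14 forkhead relatives listed 5 were tested, 3 positive and 2 negative. Foxn3, a forkhead repressor, had 6.9 and 4 counts in the controls and 14.5 and 11 under sleep restriction (log2 change 0.95, SE 0.37, edgeR adjusted p 0.978). Foxp4 had 0.25 and Foxj2 -0.22. Foxo1, the insulin-regulated forkhead factor, stayed under the filter at 5.1, 3.4, 10 and 8 counts.

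Of 15 CREB and ATF relatives 8 were tested, 6 positive and 2 negative, with a median of 0.22. Atf6, a membrane-bound sensor that is cut free by the same proteases as CREB3L3, measured 46.4 and 43.4 CPM in the controls and 71.2 and 57.0 CPM under sleep restriction (log2 change 0.48, SE 0.24). Creb3 had 0.48 (SE 0.27) and Atf4 0.27 (SE 0.23). Of 17 homeobox and cut relatives 5 were tested. Zhx1, a zinc finger and homeobox factor, had 0.22 and Pbx2, a partner of HOX proteins, -0.15.

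Other liver-enriched factors had no common direction. Of 20 listed 16 were tested, 8 positive and 8 negative, with a median of 0.00. Hnf4a, the nuclear receptor at the centre of the hepatocyte network, had 207.4 and 247.7 counts in the controls and 328.9 and 406 under sleep restriction, with a log2 change of 0.69 (SE 0.20, edgeR adjusted p 0.978). Both sleep restriction libraries were above both controls, and the pairs gave 0.60 and 0.77. Gata4, a zinc finger factor of the early liver that endothelial and stellate cells also express, had 16.4 and 25.1, then 13.6 and 8 counts (-0.78, SE 0.31). Nfia had 25.4 and 25.5, then 35.1 and 41 counts (0.54, SE 0.23). At an unadjusted p under 0.05 there were 2 higher and 1 lower, beside 2.91% and 1.34% of all tested genes.

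Few of the partners through which the factors repress genes passed the filter on low counts. Of 8 symbols for corepressors and binding partners of HHEX and FOXA, 7 had an entry and 3 were tested. Tle1, a Groucho corepressor, had a log2 change of -0.55 (SE 0.27), with 18.3 and 18.6 counts in the controls and 14.5 and 10 under sleep restriction. Aes had -0.32 (SE 0.29) and Eif4e, the cap-binding protein that HHEX can bind, 0.28 (SE 0.31).

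Around PROX1 and LRH-1, 5 of 6 genes were tested. Cyp7a1, which starts the classic route from cholesterol to bile acids, had 89.4 and 41.7 counts in the controls and 145.3 and 225 under sleep restriction (log2 change 1.46, SE 0.36, edgeR adjusted p 0.978). Prox1 was higher in the same libraries. Nr5a2, the gene of LRH-1, had -0.28 (SE 0.24). Nr0b2 (SHP), the bile acid feedback repressor, had 1.21 (SE 0.54) and was uneven, at 28.2 and 50.1 CPM in the controls and 150 and 42.7 CPM under sleep restriction.

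Genes downstream of the factors had medians near 0. Of 8 tested genes that process or respond to CREB3L3, 2 were positive and 6 negative, with a median of -0.07. Apoc2, the cofactor of lipoprotein lipase, had -0.26 (SE 0.19), Apoa4 -0.22 (SE 0.22) and Crp 0.23 (SE 0.31). Fgf21, a hormone that CREB3L3 induces, had between 1 and 3.1 counts and was not tested. Among 9 tested acute phase targets of C/EBP the median was -0.01, with Orm1 at 0.91 (SE 0.24), Cp, the copper carrier ceruloplasmin, at 0.42 (SE 0.21) and Hpx, which binds haem, at -0.23 (SE 0.20). Orm1 had 278.9 and 224.9 counts in the controls and 386.4 and 568 under sleep restriction.

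Of the classic target genes of hepatocyte factors, 21 entries were tested, G6pc having more than 1, with 15 positive, 6 negative and a median of 0.05. Apoa1, the main protein of HDL, measured 1864 and 2170 CPM in the controls and 1515 and 1215 CPM under sleep restriction (log2 change -0.56, SE 0.20). Tdo2, which opens the ring of tryptophan, had 755 and 880, then 1011 and 1239 CPM (0.46, SE 0.20). Cps1, the first enzyme of the urea cycle, had 0.13 and Serpina1, the gene of α1-antitrypsin, 0.05. Across all 17 lists of relatives, partners, targets and cell type markers, 0 genes were called in edgeR, in DESeq2 or in limma-voom.

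**Figure D5:**
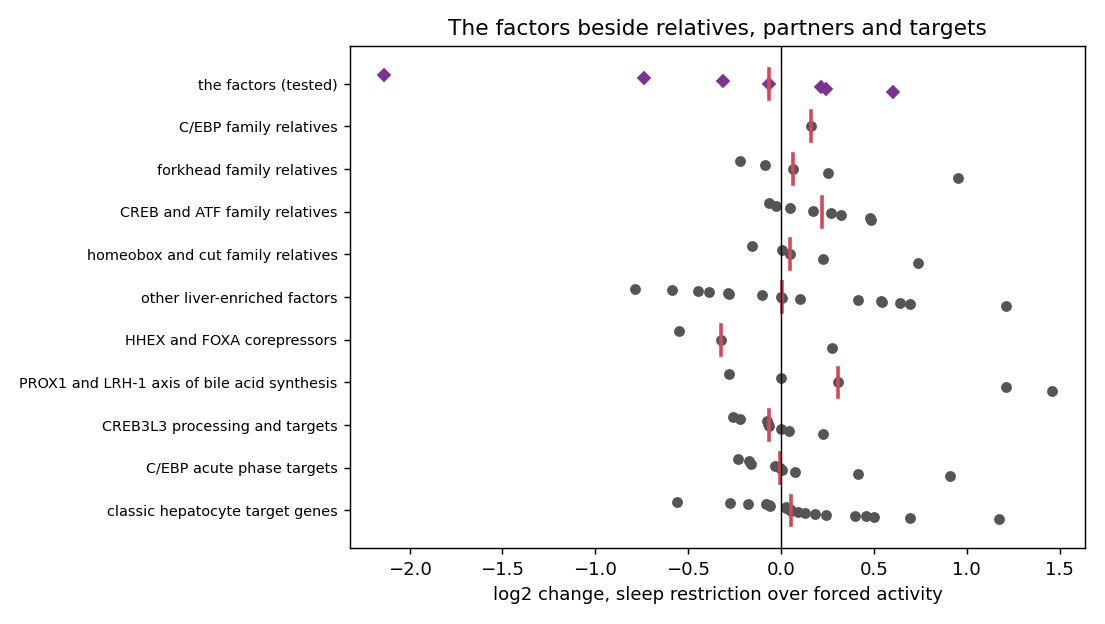
Log2 change, sleep restriction over forced activity, of each tested gene among the factors (diamonds) and the lists of relatives, partners and targets (circles); red bars are medians. Hhex at -2.14 lies below every other gene plotted, and the medians of the lists run from -0.32 for the corepressors to 0.30 for the PROX1 and LRH-1 genes.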

How the data were processed

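Liver messenger RNA was measured in 4 libraries, 2 per group. Estimated counts, 1 per Ensembl gene and library, are in a table the authors deposited with symbols and intervals. CASAVA, STAR 2.4.1d and build rn6 are named per the submitters' processing notes, without role; for the counting program none is given in the sources used here. All deposited values are multiples of 0.1. Only the sleep restriction 2 column is whole at 32544 genes, which would follow from a mean of 10 random draws down to its depth. The table's name marks sense-strand counts, a minimum and an average of 10, without further description. The fraction kept per draw was estimated by maximum likelihood from low values as 0.59 for forced activity 2, 0.01 to 0.07 for forced activity 1 and 0.01 to 0.09 for sleep restriction 1. Rows without a symbol (16, at most 0.0563% of a library) were kept under their identifiers.

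After rounding, the test was that of edgeR 4.0.16 (R 4.3.3): filterByExpr with a minimum count of 10, TMM factors (0.972 to 1.04), robust quasi-likelihood fits, Benjamini-Hochberg adjustment over 4986 genes and a threshold of 0.05. SE is the size of the log2 change over the square root of F. Pair differences use log2 CPM. DESeq2 1.42.0 and limma 3.58.1 were alternatives, with other scaling, filters, prior count, depth weighting, a replicate block and each library left out; DESeq2 on all genes was added after the data were seen. On 5 simulated data sets of a median of 5048 tested genes, edgeR found 40.9% of the 2-fold and 93.9% of the 4-fold differences put in. False calls were 3.09%. The simulation gave all genes a common dispersion and had no depth differences, averaged draws or replicate effect. These rates therefore do not hold for genes that vary more between libraries, such as Hhex, which edgeR did not call.

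The factors and gene lists were chosen with earlier results of these data known. Named are all 9 factors, up to 3 tested genes of each related list with the smallest unadjusted p, the 2 most abundant tested markers of cell type lists, and the 3 genes nearest to Hhex. Some genes that this rule names are left out here. Other genes named were chosen after their values were seen. Cell type lists covered hepatocytes, bile duct, endothelium, macrophages, stellate cells, lymphocytes and red cells. Promoters come from RefSeq, build GRCr8.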

Additional observations from a re-analysis of the deposited data

How the results depend on the processing

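The 7 tested factors kept the sign of their log2 change in all alternative tests, scalings and filters in which they were tested, Hhex between -2.28 and -2.07, Foxa2 between -1.03 and -0.73 and Prox1 between 0.57 and 0.62. Dropping single libraries, which leaves 1 library alone in its group with a spread borrowed from the other, gave Hhex -2.67 to -1.34, Foxa2 -1.01 to -0.42 and Prox1 0.31 to 0.87, while Cebpa (-0.05 to 0.59), Cebpb (-1.41 to 0.56), Foxa3 (-0.24 to 0.55) and Creb3l3 (-0.27 to 0.11) crossed 0. The median of the factors was -0.06 over 7 in the main test, -0.34 over 9 without a filter, -0.40 over 9 with DESeq2 on all genes, -0.12 over 9 with effective counts and 0.071 over 6 at a mean of at least 20 counts, and it was -0.51 to 0.036 with 1 library left out. These medians are over different sets of factors, those over 9 with Foxa1 and Onecut1 added and that over 6 without Cebpb. With single libraries left out the values of the factors themselves also moved, and the cause of that was not tested. Foxa1 and Onecut1, too low for the main test, had -0.46 and -0.41 without a filter.

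Of all genes, 1 was called in the main test, 2 by DESeq2 (Hhex among them), 3 with effective counts, which weight libraries by depth, and 0 by limma-voom, with no robust estimation and with no filter. With each library left out it was 0 to 0. The replicate numbers are not labelled as pairing animals, and with 2 pairs (correlation of deviations 0.21) no pairing was assumed. A replicate block called 11 genes, 0.221% of those tested, 2 higher and 9 lower, with Hhex among them.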
